A study of Arabidopsis thaliana with 12 samples.

Results

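Arabidopsis lines at opposite ends of the supply of trienoic fatty acids were compared on Affymetrix ATH1 arrays: 35S-FAD3, an overexpressor of a linoleate desaturase, and fad3/7/8, a triple mutant that lacks such desaturases. The arrays were chosen by sample title, which gave 2 arrays for each line, 1 at ambient temperature and 1 in the cold, or 4 of the 12 arrays in the series. The comparison took both temperatures together, with temperature as a block, and the question asked was how far the transcript levels of the lines differ and where the control lines lie between them.

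The whole series covered 6 lines, each with 1 ambient and 1 cold array, and its title concerns membrane fluidity in the perception of low temperature. Whole seedlings at growth stage 1.02 had been grown on MS medium at 20 °C with 16 h of light, after 4 days in a fridge. The control lines were Col-0, the wild type, and Col-aeq, Columbia with the calcium reporter apoaequorin. The other lines were fab1, with less elongation of palmitate, and fad2, whose oleate desaturase of the endoplasmic reticulum is missing. The titles of the fad3/7/8 arrays carry the abbreviation aeq, and the labels describe single mutants made with the mutagen EMS and a triple mutant obtained by crossing. The 35S-FAD3 arrays are named for FAD3 in the title, while their genotype label names apoaequorin under the 35S promoter alone; every value for this line rests on the title. The 35S promoter drives a transgene in most tissues. The sources used here give neither the number of transformants or growths behind a line nor the temperature and length of the cold.

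FAD3 in the endoplasmic reticulum and FAD7 and FAD8 in the plastid add the last double bond to the linoleate of membrane lipids, which gives linolenate. Linolenate is a main fatty acid of the photosynthetic membranes and the starting material of jasmonate, the hormone of wounding and defence. The FAD8 enzyme is known for acting mostly at low temperature, and polyunsaturated chains keep membranes fluid in the cold. In the triple mutant trienoic fatty acids are nearly absent, and plants of that genotype are known to be deficient in jasmonate.

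The values were the authors' MAS5 signals, a linear intensity per probe set, scaled to the same trimmed mean on every array (100.01). FAD3, FAD7, FAD8, FAD2 and FAB1 had no named probe set in the annotation used here, so the arrays could not be used to check the genotypes. The Col-aeq ambient array stood apart: the ratio of 3' to 5' signal for actin was 7.00 there and 1.96 to 2.21 on each of the other 11 arrays, and its 25S rRNA signal was 2463. The Col-aeq cold array had a 25S rRNA signal of 849, the 35S-FAD3 arrays had 312 and 473 (ambient and cold), and the fad3/7/8 arrays had 158 and 229. The part of these differences in the results was not tested. The main counts over all probe sets, and some results for named genes and gene lists, are also given without Col-aeq. Over all probe sets, whose values are not independent, the 35S-FAD3 and fad3/7/8 arrays correlated at 0.980 at ambient temperature and 0.976 in the cold. The leaf markers summed to signals of 5862 to 8060 and the root markers to 3048 to 3859 on the 12 arrays, and the seed and flower markers to at most 18.5 and 19.5. In such bulk samples fewer cells of a type and less RNA per cell cannot be told apart.

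Few transcripts separated the 2 lines when the spread was estimated from all 12 arrays. Signals were taken as log2(signal + 1.6), and 14193 probe sets had a mean signal of at least 20. In limma's fit of line and temperature, 6 probe sets (0.0423% of those tested) had a Benjamini-Hochberg adjusted p under 0.05, 3 of them higher in 35S-FAD3 (0.0211%) and 3 lower (0.0211%). At an unadjusted p under 0.05 there were 1019, or 7.18%. When the spread was taken from the 4 arrays of the 2 lines alone, 429 probe sets (3.02%) passed, 133 of them higher in 35S-FAD3 (0.937%) and 296 lower (2.09%). Without both Col-aeq arrays, 31 passed in the fit of the other lines (0.218%). All 6 were among both the 429 and the 31, and all 31 were among the 429. In each fit the spread comes from how far differences between lines changed from ambient temperature to the cold. What both arrays of a line have in common counts as part of its difference, and the p-values hold no spread between separate growths.

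A difference of over 2-fold in the same direction at both temperatures was seen for 24 probe sets (0.169%), 10 higher (0.0705%) and 14 lower (0.0986%) in 35S-FAD3. The same count between the control lines, Col-0 over Col-aeq, was 30 (0.211%). The control lines also differed in limma's fit, with 16 probe sets past the threshold (0.113%). Of all tested probe sets, 57.8% had the same sign of the difference between 35S-FAD3 and fad3/7/8 at both temperatures.

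**Figure D1:**
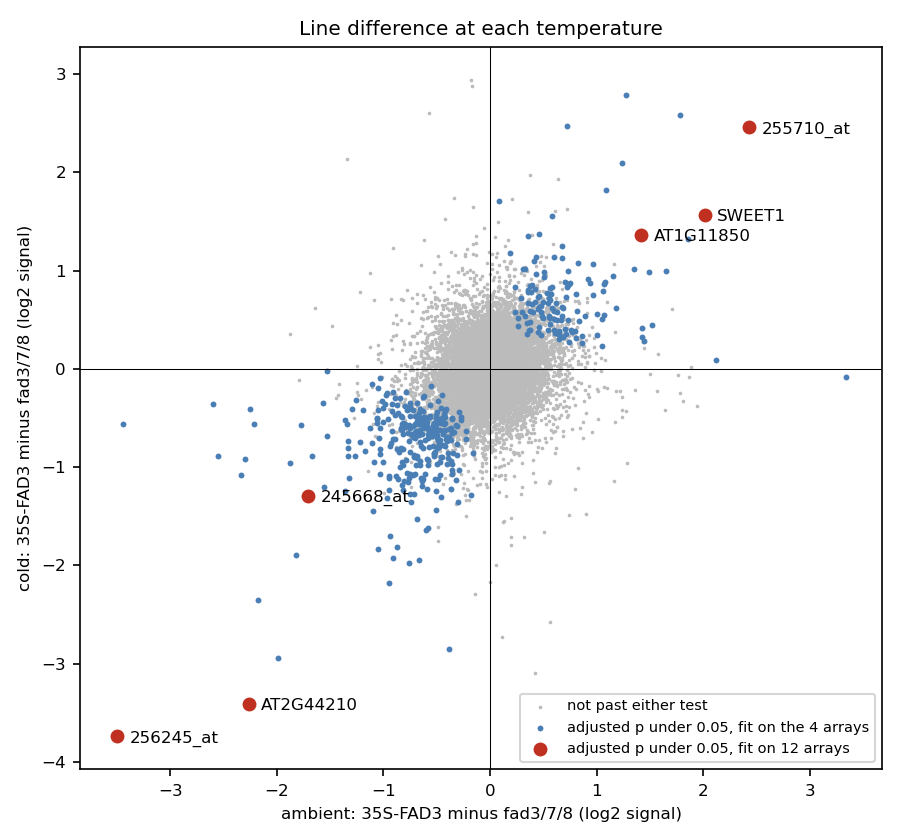
Each point is 1 of 14193 probe sets, with the log2 difference of 35S-FAD3 minus fad3/7/8 at ambient temperature on the x axis and in the cold on the y axis. Red points are the 6 that passed in the fit of 12 arrays and blue points those of the 429 that passed in the fit of the 4 arrays; SWEET1, AT1G11850 and 255710_at lie at the upper right, and AT2G44210, 245668_at and 256245_at at the lower left.

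SWEET1, which encodes a glucose transporter of the plasma membrane, was the most strongly raised gene with a name among those that passed. Its signal on the 35S-FAD3 arrays was 438 at ambient temperature and 557 in the cold. On the fad3/7/8 arrays it was 107 and 187. Both 35S-FAD3 values lay above every other array of the series, where the highest value was 264, on the fab1 cold array. The difference of 1.79 on the log2 scale (SE 0.188, 3.46-fold) had an adjusted p of 0.00461 in limma's fit. The control lines had 119 and 248 (Col-0) and 124 and 168 (Col-aeq), so their mean lay 8.39% of the way from fad3/7/8 to 35S-FAD3 on the log2 scale.

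AT1G11850 was also highest in 35S-FAD3. The signals were 160 and 131 in 35S-FAD3 and 59.0 and 49.8 in fad3/7/8. Col-0 had 48.7 and 47.1, Col-aeq 60.2 and 64.2, and the highest of the other lines was fad2 with 82.9 and 100.2. The 35S-FAD3 values were again above all the others, with a difference of 1.39 (SE 0.171, 2.62-fold, adjusted p = 0.0173 in limma's fit) and the control mean at 0.684% of the way.

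AT2G44210, a gene of the DUF239 family, was the gene with a name that was most reduced. Its signals in 35S-FAD3 were 55.1 at ambient temperature and 21.5 in the cold, against 271 and 243 in fad3/7/8. Every other array had a signal between 179 and 340, so the 35S-FAD3 arrays stood alone at the low end. The difference was −2.83 on the log2 scale (SE 0.287, 7.13-fold, adjusted p = 0.00426 in limma's fit), with the control mean at 4.77%.

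The other 3 that passed had no gene listed in the annotation and are given by probe set. For 256245_at the signals were 18.0 and 9.9 in 35S-FAD3 and 220 and 152 in fad3/7/8, with 231 to 425 in the control lines. The difference of −3.62 (SE 0.281, adjusted p = 0.000892 in limma's fit) was the largest of all, and the control mean lay beyond fad3/7/8, at −24.6%. Here fad2, with 104 and 115, came nearest to 35S-FAD3. Both 35S-FAD3 signals were under 20, so the size of the difference is uncertain.

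In 255710_at the roles were turned round. The signals were 122 and 118 in 35S-FAD3, 91.8 to 121 in the control lines and 102 and 89.9 in fad2, against 21.2 and 20.2 in fad3/7/8. The fab1 arrays were as low as the triple mutant, with 24.7 and 15.7. The difference was 2.45 (SE 0.209, adjusted p = 0.00116 in limma's fit), with the control mean at 92.5%, next to 35S-FAD3. The last probe set, 245668_at, had 107 and 41.8 in 35S-FAD3, 353 and 105 in fad3/7/8, 161 and 50.1 in Col-0 and 294 and 63.0 in Col-aeq. Its difference of −1.50 (SE 0.207, adjusted p = 0.0408) put the control mean at 52.5%, the middle of the range; fab1 with 302 and 102 lay near fad3/7/8, and fad2 with 74.0 and 29.9 lay beyond 35S-FAD3. Its adjusted p was above the threshold in 16 of the 25 other settings tried.

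Below the threshold, the genes of lowest p with 1 listed gene and the same sign at both temperatures were taken until 12 stood in each direction. These 24 include the 3 named above. All 24 passed in the fit of the 4 arrays and 11 passed without the Col-aeq arrays, whereas the 21 added here had adjusted p of 0.0746 to 0.364 in the fit of 12 arrays. On 19 of the 24, both arrays of one line lay above both arrays of the other at any temperature, as for 3623 of all 14193 probe sets.

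Among those higher in 35S-FAD3, AT4G38760, which encodes the nucleoporin NUP188, had signals of 116 and 96.9, against 40.3 and 48.3 in fad3/7/8. The fab1 arrays were also low here, at 38.7 and 43.1, while Col-0, Col-aeq and fad2 had 71.6 to 105. This is the order of lines seen for 255710_at, with a difference of 1.24 (SE 0.199) and an adjusted p of 0.0886 in limma's fit of 12 arrays and 0.000132 in that of 4.

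AT2G27420, a papain-like cysteine protease gene, had 168 and 454 in 35S-FAD3 and 74.7 and 235 in fad3/7/8, a difference of 1.05 (SE 0.166, adjusted p = 0.0886 in limma's fit of 12 arrays). Both lines had more signal in the cold, and at each temperature 35S-FAD3 had the highest and fad3/7/8 the lowest of the 6 lines. AT4G29020, a glycine-rich protein gene with strong signals, had 1755 and 1796 in 35S-FAD3 and 1142 and 1127 in fad3/7/8. The remaining lines had 933 to 1373, so fad3/7/8 lay among them and 35S-FAD3 above (difference 0.64, SE 0.109).

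AT1G12845 had 226 and 202 in 35S-FAD3 and 115 and 95.3 in fad3/7/8, but Col-0, with 50.1 and 57.6, lay below both lines. The same held for AT3G14760, with 121 and 55.0 against 70.8 and 29.4 and a Col-0 level of 53.6 and 19.0. For AT1G19450, a gene of the ERD6-like sugar transporters, 35S-FAD3 (790 and 919) was level with Col-0 (803 and 877) and fad3/7/8 was lower (534 and 670). The differences of AT1G12845, AT3G14760 and AT1G19450 were 1.02, 0.81 and 0.51 on the log2 scale. AT1G23205, an inhibitor of invertases or pectin methylesterases, AT1G70985, AT3G47295 and AT2G41380 had differences of 0.95, 0.72, 0.61 and 0.79.

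Among those lower in 35S-FAD3, AT3G17750, a protein kinase gene, came closest to the threshold. Its signals were 47.1 and 29.6 in 35S-FAD3 and 99.0 and 110 in fad3/7/8, and the remaining lines had 70.8 to 96.6. The difference was −1.44 (SE 0.219, adjusted p = 0.0746 in limma's fit of 12 arrays), and 35S-FAD3 was the line that stood apart. AT3G04640, a glycine-rich protein gene, had 49.7 and 49.8 against 90.5 and 101, with 70.9 to 97.7 in the remaining lines. AT4G07820, which encodes a protein related to pathogenesis-related protein PR1, had 31.2 and 20.8 against 56.3 and 51.2, with Col-aeq highest at 81.1 and 62.6.

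For other genes fad3/7/8 was the line that stood apart. AT2G39400, which encodes an alpha/beta hydrolase of the monoacylglycerol lipase family, had 202 and 110 in fad3/7/8, and 104 and 50.7 in 35S-FAD3. The remaining ambient arrays had 84.0 to 147 and the remaining cold arrays 42.7 to 64.0 (difference −1.02, SE 0.169, adjusted p = 0.0886 in limma's fit of 12 arrays). AT3G47160, a RING-type ubiquitin ligase family gene, had 478 and 311 in fad3/7/8 against 271 and 176 in 35S-FAD3, with 141 to 324 elsewhere (difference −0.81, SE 0.144).

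PDC2, one of the pyruvate decarboxylases that start ethanol fermentation, had 146 and 172 in 35S-FAD3 and 316 and 292 in fad3/7/8. The control lines split: Col-0 had 175 and 233, Col-aeq 273 and 355. AT2G39920, an acid phosphatase family gene, had 25.6 and 59.3 against 66.9 and 105. There Col-aeq (49.3 and 109) was near fad3/7/8 and Col-0 (11.2 and 33.3) was below 35S-FAD3. AT5G61590, the factor DEWAX that represses genes of cuticular wax synthesis, had 421 and 111 against 606 and 203, with 620 and 141 in Col-aeq and 362 and 85.3 in Col-0. AT3G60420 had low signals of 13.1 and 14.6 in 35S-FAD3 against 50.2 and 58.8, with Col-0 at 66.9 and 28.3 and Col-aeq at 12.6 and 21.6. The difference of AT1G69840 was −0.65, that of AT2G47890, a B-box factor, −0.66, and that of AT5G61590 −0.70.

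**Figure D2:**
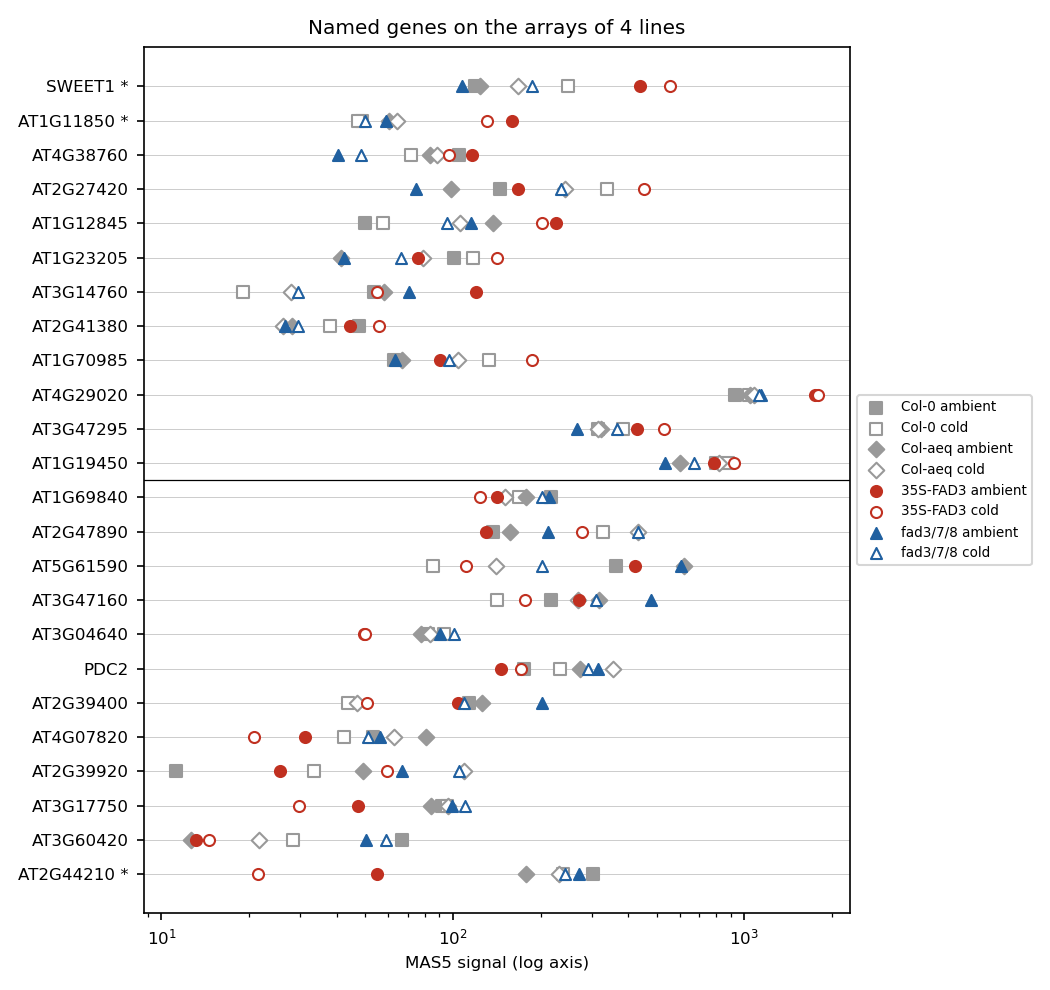
MAS5 signals (log axis) of the 12 genes higher in 35S-FAD3 (above the line) and the 12 lower (below it), on the arrays of 35S-FAD3, fad3/7/8, Col-0 and Col-aeq. Filled symbols are ambient arrays and open symbols cold arrays, each 1 array; a star marks SWEET1, AT1G11850 and AT2G44210, which passed in the fit of 12 arrays.

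Where the control lines lay between the 2 lines differed from probe set to probe set. On the log2 scale, with fad3/7/8 at 0% and 35S-FAD3 at 100%, the control mean (Col-0 and Col-aeq) lay between the 2 lines for 5 of the 6 probe sets that passed, with a median of 6.58%. It was nearer to fad3/7/8 for 3, nearer to 35S-FAD3 for 2 and beyond fad3/7/8 for 1. With Col-0 alone the count between was 3. Of the 429 of the 4-array fit, the control mean lay between for 299 (69.7%), against 29.9% of all tested probe sets; a wide gap holds other lines more often, so these shares are a description. It was nearer to 35S-FAD3 for 159 and nearer to fad3/7/8 for 140, beyond 35S-FAD3 for 54 and beyond fad3/7/8 for 76, and its median was 48.6%. The 2 control lines did not share that middle: the median was 62.6% for Col-0 and 28.1% for Col-aeq (57.6% and 39.0% over all tested). All 4 control values lay between the 2 lines at their own temperature for 1 of the 6 and for 27 of the 429 (6.29%), against 200 of all tested (1.41%).

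Among all 6 lines, 35S-FAD3 was the extreme line in its direction for 5 of the 6 probe sets and for 17 of the 24 named genes. The triple mutant was the extreme line for 2 of the 6 and 12 of the 24. Over all tested probe sets the shares were 24.3% and 29.4%. Among the 429, the order was different, with 181 for 35S-FAD3 and 223 for fad3/7/8. These genes were chosen for a difference between the 2 lines, which by itself makes one of them the extreme line more often, so these counts are a description.

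**Figure D3:**
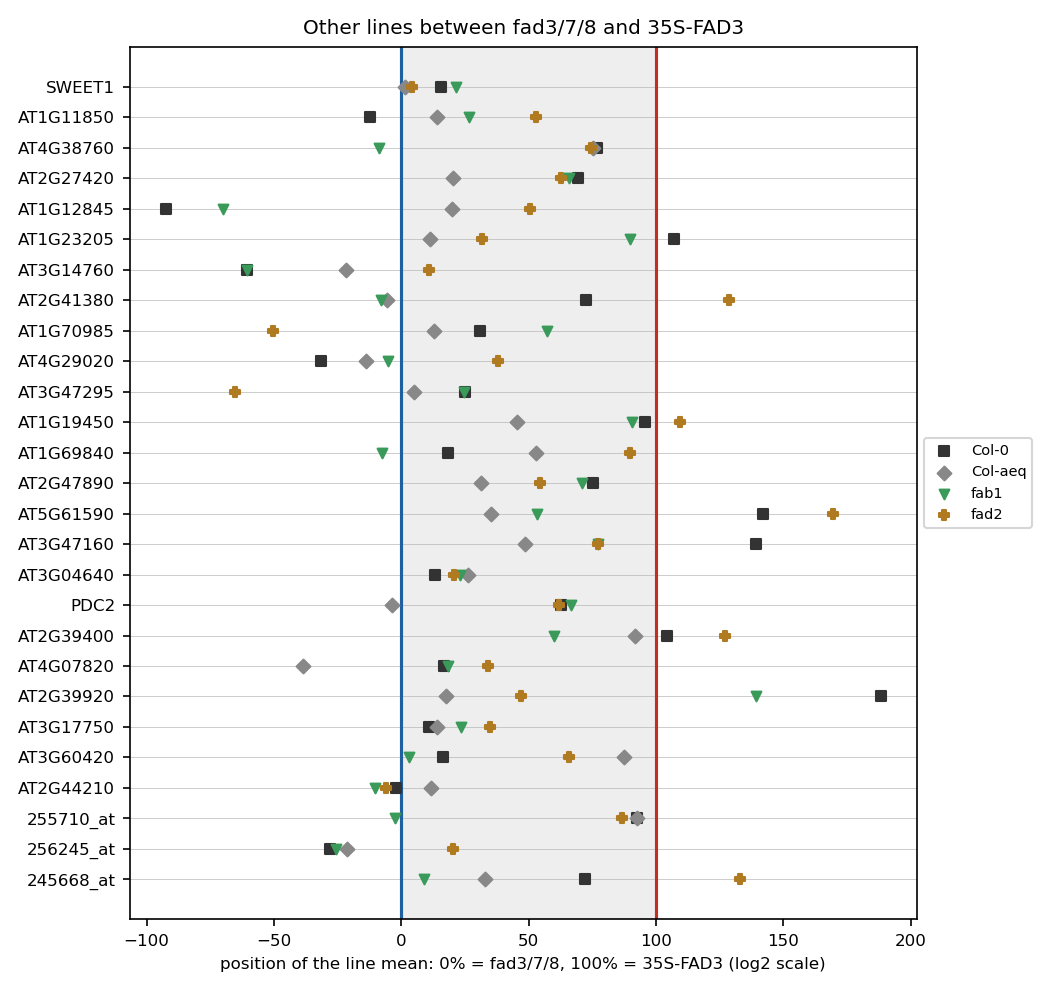
Mean position of Col-0, Col-aeq, fab1 and fad2 on the log2 scale, from fad3/7/8 (0%, blue line) to 35S-FAD3 (100%, red line), for the 24 named genes and the 3 probe sets without a listed gene that passed. For SWEET1 the mean of the control lines lies at 8.39%, for 255710_at at 92.5%, and symbols outside the grey band are lines beyond either end.

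Each line was also set against the mean of the control lines in the same fit. The comparisons share the control arrays. In 35S-FAD3, 25 probe sets passed (0.176%), of which 11 had more signal than the control lines (0.0775%) and 14 had less (0.0986%). In fad3/7/8, 5 passed (0.0352%), of which 3 had more (0.0211%) and 2 had less (0.0141%). Of the 24 named genes, 8 passed for 35S-FAD3 and 0 for fad3/7/8. The 24 were chosen for a difference between these 2 lines on the same arrays, so these counts are a description. Whether the lines differ in this number was not tested. The 8 were SWEET1 (1.64, SE 0.163, adjusted p = 0.00354 in limma's fit), AT1G11850, AT4G29020, AT1G12845, AT3G14760, AT2G44210 (−2.70, SE 0.248, adjusted p = 0.00248), AT3G17750 and AT4G07820. For fad3/7/8, 255710_at was lower than the control lines by −2.26 (SE 0.181, adjusted p = 0.00118 in limma's fit). Without both Col-aeq arrays, and thus against Col-0 alone, the counts were 317 (2.23%) for 35S-FAD3 and 692 (4.88%) for fad3/7/8. With the Col-aeq arrays kept, and thus against the mean of the control lines, only the probe set of AT3G25150 passed for both lines. Its signals were 93.8 and 92.6 in 35S-FAD3, 116 and 97.5 in fad3/7/8, with 123 and 113 for Col-0, against 13.8 and 7.7 in Col-aeq, so Col-aeq was the line that stood apart. This gene was chosen after its values were seen.

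Genes of the same pathway as the altered enzymes held no difference between the 2 lines past the threshold. Of the list for acyl chains and desaturation, 5 of 21 genes had a named probe set, and 0 of the 5 passed in either fit. AT5G16240 and AT3G02630, which encode stearoyl-ACP desaturases of the plastid, had differences of 0.12 and −0.06. The acyl-ACP thioesterases FaTA and FATB, which release fatty acids for export from the plastid, had 0.29 and 0.02, and AT4G13050, a second FatA-type gene, had −0.02. FATB signals were 305 and 412 in 35S-FAD3 and 342 and 356 in fad3/7/8, so the lines overlapped. The 3 tested genes of fatty acid synthesis and the 2 of glycerolipid synthesis had differences of −0.08 to 0.08, and 0 passed between the 2 lines. Without both Col-aeq arrays, AAPT2 of the glycerolipid list was below Col-0 in both lines. It differed from Col-0 by −0.49 in 35S-FAD3 and −0.50 in fad3/7/8 (adjusted p = 0.0476 and 0.0297 in limma's fit). Over all tested probe sets, 2.23% and 4.88% passed against Col-0 in either direction.

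Jasmonate is made from linolenate, and 0 of the tested jasmonate-linked genes passed between the 2 lines in limma's fit of 12 arrays. In that fit 2 had an unadjusted p under 0.05, against 7.18% of all tested probe sets. Of the list of 57 genes, 12 had a named probe set and 8 of these were tested. In the fit of the 4 arrays 2 of the 8 passed, both lower in 35S-FAD3, against 2.09% of all tested probe sets. The median difference was −0.13 on the log2 scale, against 0.01 over all tested probe sets. Against the control lines the median was −1.74 in 35S-FAD3 and −1.41 in fad3/7/8, where over all probe sets it was 0.02 and 0.03. In the fit of 12 arrays 2 of the 8 passed as lower than the control lines in 35S-FAD3 (AT5G05600 and AT1G10585), against 0.0986% of all tested probe sets. In fad3/7/8 it was 1 (PDF1.2), against 0.0141%, and no member passed in both lines.

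AT5G05600, whose jasmonate oxygenase inactivates the hormone, had signals of 37.5 and 26.0 in 35S-FAD3 and 73.7 and 57.9 in fad3/7/8. Col-0 had 198 and 221 and Col-aeq 77.0 and 145, so all control values lay above all values of the 2 lines. In 35S-FAD3 it was lower than the control lines by −2.19 (adjusted p = 0.00922 in limma's fit), and between the 2 lines it differed by −1.03 (SE 0.31, adjusted p = 0.466 with 12 arrays and 0.00237 with 4). Its relatives JRG21 and AT2G38240 did not pass against the control lines in the fit of 12 arrays for either line. JRG21 had 10.9 and 10.4 in 35S-FAD3 and 18.0 and 9.0 in fad3/7/8, with 114 and 116 in Col-0 and 16.9 and 69.9 in Col-aeq. The ambient Col-aeq value thus lay among those of the 2 lines. AT2G38240 had 16.6 and 25.6 in 35S-FAD3 and 32.7 and 10.0 in fad3/7/8, with 96.4 and 153 in Col-0 and 44.7 and 84.7 in Col-aeq.

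The defensin PDF1.2, a marker of the jasmonate and ethylene defence response, had 18.6 and 15.2 in 35S-FAD3 and 7.4 and 6.4 in fad3/7/8. Col-0 had 79.7 and 46.5, Col-aeq 64.2 and 27.0, and fab1 11.4 and 11.2. In fad3/7/8 PDF1.2 was below the control lines by −2.62 (adjusted p = 0.0252 in limma's fit). That lower level was fixed by the filter on mean signal, so it is a description. The difference between the 2 lines, 1.12 (SE 0.37), had an adjusted p of 0.500 in the same fit. All 4 signals of the 2 lines were under 20, so these sizes are uncertain, and no difference between the lines was left when signals under 20 were set to 20. AT1G10585, a bHLH factor gene, had 16.0 and 21.9 in 35S-FAD3, 16.3 and 39.9 in fad3/7/8 and 57.3 to 131 in the control lines (−2.08 in 35S-FAD3, adjusted p = 0.0150 in limma's fit). The ambient signals of AT1G10585 in the 2 lines were under 20, so this size is uncertain. The filter favours genes that are high in other lines.

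OPCL1, an enzyme of jasmonate synthesis in the peroxisome, had 52.2 and 36.5 in 35S-FAD3 and 72.5 and 92.2 in fad3/7/8 (−0.88, adjusted p = 0.00917 in limma's fit of 4 arrays and 0.709 in that of 12). The factors MYC3 and MYC4, which switch on jasmonate targets, differed by −0.03 and 0.38. Without both Col-aeq arrays, 5 of the 8 passed as lower than Col-0 in 35S-FAD3 and 5 in fad3/7/8: AT5G05600, PDF1.2, AT1G10585, JRG21 and AT2G38240 in each line. Over all tested probe sets, 2.23% and 4.88% passed in either direction. JRG21 and PDF1.2 had signals under 20 on all 4 arrays of the 2 lines and reached the mean signal of 20 only through lines where they were high. Their lower level here was therefore fixed by the filter, and the count of 5 and the list medians against the control lines are a description. The adjusted p of limma's fit ran from 0.000812 to 0.0364 in 35S-FAD3 and from 0.00442 to 0.0141 in fad3/7/8. The fab1 and fad2 arrays also had less of these 5 than Col-0 at both temperatures, for instance 60.4 and 59.4 (fab1) and 35.0 and 61.5 (fad2) for AT5G05600.

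Of 37 listed genes of the cold regulon 7 were tested, with a median difference of −0.51, and 0 of the 7 passed in limma's fit of 12 arrays or in that without Col-aeq. At an unadjusted p under 0.05 there were 5 in the fit of 12 arrays, against 7.18% of all tested probe sets. In the fit of the 4 arrays 5 of the 7 passed, all lower in 35S-FAD3, against 2.09% of all tested. All 7 had negative differences at both temperatures, as did 4026 of all 14193 probe sets. The median was −0.92 at ambient temperature and −0.34 in the cold. AT4G33980, known as COR28, a regulator that joins the cold response to the circadian clock, had 7.4 and 278 in 35S-FAD3 and 51.3 and 516 in fad3/7/8. Its difference was −1.72 (SE 0.378, adjusted p = 0.274 in limma's fit of 12 arrays and 0.000127 in that of 4). Its relative COR27 had 1.4 and 288 against 31.1 and 427, which is −3.45 at ambient temperature and −0.56 in the cold on the log2 scale. Ambient signals of both genes in 35S-FAD3 were under 20, so these sizes are uncertain.

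The dehydrin COR47 had 574 and 2096 in 35S-FAD3 and 991 and 2464 in fad3/7/8, and the remaining lines ranged from 838 to 1054 without cold and from 2155 to 2506 with it. It differed by −0.51 (SE 0.146, adjusted p = 0.425 in limma's fit of 12 arrays and 0.0116 in that of 4). COR15A and COR15B, which protect chloroplast membranes in freezing, differed by −0.47 and −0.61, with signals for COR15B of 113 and 1185 against 223 and 1408. The zinc-finger repressor STZ (−0.51) and the dehydrin LTI30 (−0.29) did not pass in either fit.

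The control lines did not settle on one side for these genes. For AT4G33980 Col-0 had 4.4 and 147, below 35S-FAD3, and Col-aeq 33.8 and 462, near fad3/7/8. Without both Col-aeq arrays it was above Col-0 by 2.47 in fad3/7/8 (adjusted p = 0.00636 in limma's fit). In 35S-FAD3 it was above Col-0 by 0.75 (adjusted p = 0.267 in the same fit). The ambient Col-0 signal was under 20, so these sizes are uncertain. Of the 7 cold genes, 1 passed against Col-0 in fad3/7/8 and 0 in 35S-FAD3, against 4.88% and 2.23% of all tested. For COR27 in the cold Col-0 was lowest of all lines at 156. GI, a clock gene, had 234 and 486 in 35S-FAD3 and 398 and 647 in fad3/7/8, with 202 and 472 in Col-0 and 190.5 and 679 in Col-aeq. The 2 lines differed by −0.59 (adjusted p = 0.00779 in limma's fit of 4 arrays and 0.613 in that of 12). Without both Col-aeq arrays GI was above Col-0 by 0.71 in fad3/7/8 (adjusted p = 0.0189 in limma's fit). In 35S-FAD3 it was above Col-0 by 0.12 (adjusted p = 0.678 in the same fit). The other clock gene tested, AT5G52660, differed by 0.16.

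**Figure D4:**
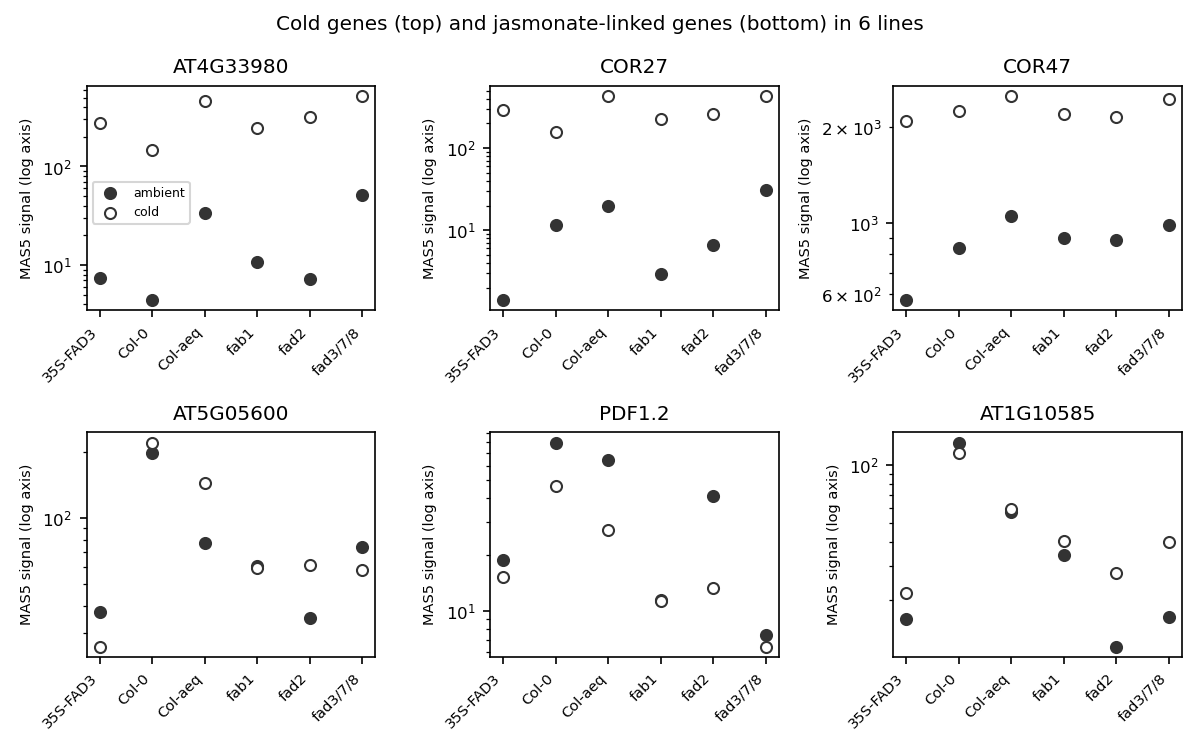
MAS5 signals (log axis) of 3 genes of the cold regulon (top) and 3 jasmonate-linked genes (bottom) in the 6 lines, with filled symbols for ambient and open symbols for cold arrays, each 1 array. COR47 at ambient temperature is lowest in 35S-FAD3 (574), and AT5G05600 is highest in Col-0 (198 and 221).

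The rise in the cold itself was compared between the lines, as the difference of their cold changes, with the spread from the other 4 lines. 0 probe sets passed in limma's fit (0.0%), and 226 (1.59%) had an unadjusted p under 0.05. The 2 of lowest p on each side had an adjusted p of 1.00. AT5G32510 had 32.5 and 39.8 in 35S-FAD3 and 84.9 and 7.8 in fad3/7/8, and AT3G12870 had 32.8 and 29.1 and 37.2 and 2.4. AT1G10340 had 19.9 and 4.0 in 35S-FAD3, and its fad3/7/8 cold array had 38.8. PUB19, a U-box ubiquitin ligase gene, had 46.8 and 279 in 35S-FAD3 and 22.3 and 398 in fad3/7/8. Signals under 20 enter the values of AT5G32510, AT3G12870 and AT1G10340, so the sizes of these differences are uncertain.

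Sugar and growth genes made up other groups. Over all 14193 probe sets, 7257 differences were positive and 6936 negative. In the fit of the 4 arrays 0.937% of them passed as higher and 2.09% as lower. Of the 9 tested sugar transporters, 7 had a positive and 2 a negative difference, with a median of 0.15. In the fit of the 4 arrays 2 passed: SWEET1, and SAG29, which is SWEET15, a sucrose transporter of senescing leaves. SAG29 had 154 and 248 in 35S-FAD3 and 55.5 and 204 in fad3/7/8, while fad2 was highest at 187 and 508 (difference 0.86, SE 0.23, adjusted p = 0.368 in limma's fit of 12 arrays). The 13 tested genes of carbon starvation, which include autophagy genes and enzymes of leucine breakdown, had 1 positive and 12 negative differences and a median of −0.21. The 2 that passed in the fit of the 4 arrays break down leucine: IVD, with 255 and 217 in 35S-FAD3 and 411 and 408 in fad3/7/8 (−0.79, SE 0.29, adjusted p = 0.599 in limma's fit of 12 arrays), and MCCA, with 134 and 166 against 238 and 233. At ambient temperature the control lines had as much of both as fad3/7/8 or more (494 and 523 for IVD), and in the cold IVD had 233 in Col-0 and 240 in Col-aeq. For MCCA in the cold Col-0 had 157 and Col-aeq 113, below both lines.

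All 10 tested photosynthesis genes had small positive differences at both temperatures, with a median of 0.14, as did 4183 of all probe sets. Only LHCB4.3, an antenna protein of photosystem II, passed in the fit of the 4 arrays, where 0.937% of all tested passed as higher. It had 221 and 286 in 35S-FAD3 against 162 and 187 in fad3/7/8 (0.53, SE 0.16). The other 9 differed by 0.01 to 0.20, RCA, the activase of Rubisco, by 0.15. Of 15 cell wall genes, 11 had a positive difference (median 0.18), as did 7257 of all 14193 probe sets. In the fit of the 4 arrays 3 of the 15 passed as higher, against 0.937% of all tested. These were the xyloglucan-remodelling genes XTH16 (0.67), XTH19 (0.87) and XTH32 (0.52). XTH16 had 136 and 91.6 in 35S-FAD3 and 91.1 and 53.4 in fad3/7/8, and for XTH19 fad2 exceeded both lines with 131 and 168.

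Of the 6 flavonoid genes, 5 had positive differences (median 0.40), as did 7257 of all 14193 probe sets. In the fit of the 4 arrays 1 of the 6 passed as higher, against 0.937% of all tested. UGT78D2, a flavonoid glucosyltransferase, passed in the fit of the 4 arrays, with 177 and 829 in 35S-FAD3 and 112 and 650 in fad3/7/8, and AT4G14090, which glucosylates anthocyanins, had 4.1 and 20.7 against 2.8 and 4.1. CML38, a calmodulin-like calcium sensor, had 7.1 and 18.8 against 41.2 and 36.9 (−1.61, SE 0.36, adjusted p = 0.277 in limma's fit of 12 arrays and 0.00578 in that of 4). Signals under 20 enter the values of AT4G14090 and CML38, so these sizes are uncertain. CML42, a relative of CML38, differed by −0.13. The 6 heat shock and folding genes had 0 that passed, with AT5G48570 at −0.72 and Hsp70-2 at −0.26, and so did the 8 root markers, with AT5G17820 at 0.60 and EXPA18 at 0.46. The 2 leaf markers, RCA and LHCB4.1, the guard cell marker FMA (0.48) and the 3 reference genes (AT4G34270 −0.29, AT2G28390 −0.23) also held none. The lists for salicylate, wounding, seed and flower had 0 tested members.

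**Figure D5:**
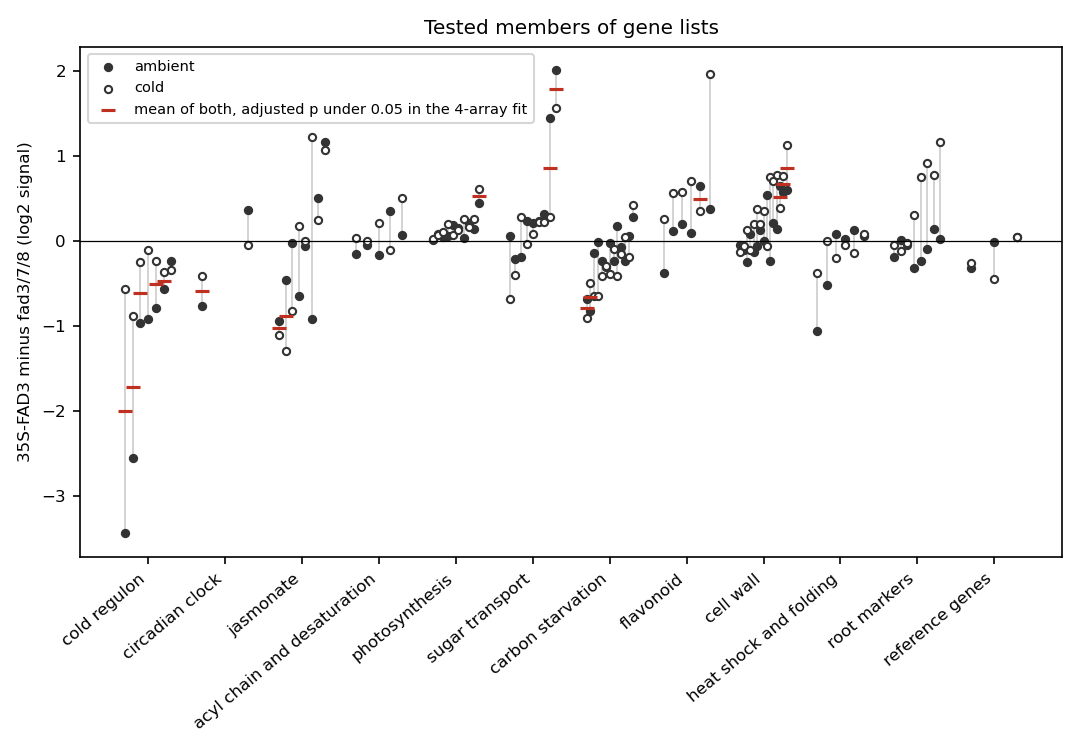
Log2 difference of 35S-FAD3 minus fad3/7/8 for each tested member of 12 gene lists, at ambient temperature (filled) and in the cold (open), joined by a grey line. Red bars mark the mean of both for members that passed in the fit of the 4 arrays; all 7 members of the cold regulon lie below 0 and all 10 photosynthesis genes above it.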

How the data were processed

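Whole-seedling RNA was extracted and biotin-labelled for Affymetrix ATH1 arrays, per the labels' protocols. The deposited values are linear MAS5 signal intensity for 22810 probe sets, per the labels and file headers; the submitters' processing notes name MAS5 and GCOS, without versions. No pair of arrays was identical (0 pairs).

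Genes came from GEO's platform annotation: 13513 probe sets had 1 gene, 503 several and 8794 none listed; 13436 of the 13513 matched RefSeq's TAIR10.1 table. Only single-gene probe sets were named. After leaving out 64 control probe sets, limma 3.58.1 in R 4.3.3 fitted log2(signal + 1.6), with the 10th percentile of all signals as the offset, for probe sets with a mean of at least 20 over the 12 arrays. An intensity trend was used. The design, line plus temperature, left 5 residual degrees of freedom; the cold-change comparison left 3 and the 4-array fit 1. SE values are limma's moderated ones. The offset makes fold changes of low signals smaller, and their sizes are uncertain. The scripts were tested on simulated data. Tables used Python 3.11.15 and pandas 2.3.3.

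Named genes were those past adjusted p 0.05 with the same sign at both temperatures, 12 per direction, filled by lowest p; from each list the 2 of lowest p; all tested jasmonate and desaturation genes; for the cold-change comparison, and for passing probe sets without a listed gene, 2 per direction. Further list members were chosen after their values were seen. The members, the lists and the tests were chosen with earlier results of these data known. Arrays have no read depth; their number limits the precision.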

Additional observations from a re-analysis of the deposited data

How the results depend on the processing

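The 6 probe sets that passed between the lines numbered 4 to 8 with another offset (9 or 20), a floor at 20, no filter or a filter at 50 or over the 4 arrays, quantile normalization, median centring, no intensity trend, or without fad2. They were 39 with array weights, 31 without both Col-aeq arrays and 429 with the 4 arrays alone, where the spread comes from fewer lines. Leaving out 1 array gave 2 to 31: 31 without either Col-aeq array, 10 without either Col-0 array, and 2 without either fad3/7/8 array. SWEET1 and AT2G44210 lost their calls without either fad3/7/8 array, and SWEET1 also without the 35S-FAD3 ambient array; AT1G11850 lost its call without any single array of 35S-FAD3, fab1 or fad3/7/8, and without the filter. 256245_at and 255710_at passed in all 25 settings tried. No named gene with a called difference changed sign (0 reversals).

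For 35S-FAD3 against the control lines the count of 25 became 16 without the filter, 7 with Col-aeq as the control and 317 without both Col-aeq arrays, and 3 to 1683 when 1 array was left out. For fad3/7/8 the count of 5 became 8 with an offset of 20, 2 without the filter, 3 without the trend, 73 with Col-0 as the control and 692 without both Col-aeq arrays, and 0 to 1799 when 1 array was left out. The 1683 and 1799 came without the Col-aeq cold array, which leaves the ambient array that stood apart. The cause was not tested. The cold changes gave 0 in all 5 alternatives. Control lines lay between for 5 of the 6, and for 3 with Col-0 alone. The scalings moved the median difference of all probe sets by at most 0.01 on the log2 scale. No paired analysis was possible because every group holds 1 array and all are labelled replicate 1; temperature is already the block.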

Other observations

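Further genes that passed in the fit of the 4 arrays, with a difference of over 2-fold, were chosen here after their values were seen. There were 31 with 1 listed gene, 9 higher and 22 lower in 35S-FAD3, and 3 of them also passed in the fit of 12 arrays. SPCH, the factor that starts the stomatal lineage, had 50.1 and 53.5 in 35S-FAD3 and 22.7 and 14.0 in fad3/7/8, and the other lines had 5.9 to 25 in their arrays. It reached the mean signal of 20 only through the 35S-FAD3 arrays. Its higher level there was therefore favoured by the filter and is a description, and its size is uncertain. AT2G15560 had 34.6 and 32.6 against 8.9 and 4.1, but fad2 had 139 and 153. That gene reached the mean of 20 only through fad2, and the fad3/7/8 signals were under 20, so this size is also uncertain. AT5G62360, a pectin methylesterase inhibitor family gene, had 41.4 and 529 in 35S-FAD3 and 199 and 784 in fad3/7/8. Its other lines ran from 23.4 in Col-0 to 102 in Col-aeq at ambient temperature. HIS1-3, a linker histone gene known to be induced by drought, had 46.7 against 115 at ambient temperature, and GAT1_2.1, a glutamine amidotransferase family gene, had 15.5 and 25.4 against 48.9 and 60.7, with every other array at 39.1 or more. AT4G15680, a glutaredoxin gene, had 62.3 and 78.0 against 129 and 166, and AT3G10020 had 248 and 82.9 against 530 and 162. The fad2 arrays were lower than 35S-FAD3 for AT4G15680 (57.9 and 56.3), AT3G10020 (208.5 and 70.0) and, at ambient temperature, HIS1-3 (29.2). The Col-0 cold array was also lower than that of 35S-FAD3 for AT4G15680 (75.1) and AT3G10020 (80.7).

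Families taken by symbol after the annotation was seen held few differences. Over all tested probe sets, 0.937% passed as higher and 2.09% as lower in the fit of the 4 arrays. Of 29 UDP-glycosyltransferases, 1 passed as higher (UGT78D2) and 2 as lower (UGT73B1, −0.86, and UGT73C1, −0.66) in the fit of the 4 arrays, with a median of −0.09. Of 69 plastid-encoded genes, 35 had positive and 34 negative differences, with a median of 0.01. Only cemA (−0.49) and psbN (−0.71) passed, 2 of the 69, which is near the share of all tested. Of 14 trichome birefringence-like genes, which acetylate wall polymers, TBL26 passed (0.70). Among 5 plant defensins PDF2.1 passed as lower (30.9 and 50.2 against 80.3 and 84.4), while PDF1.2 had its higher value in 35S-FAD3. The 12 cytochrome P450 and 9 glutathione S-transferase genes had 0 that passed in either limma fit. In the fit of 12 arrays 2 and 1 had an unadjusted p under 0.05, against 7.18% of all tested probe sets.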
